A study of Rattus norvegicus with 49 samples.

Results

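Thyroid hormone is made from iodide and the protein thyroglobulin, and 8 genes of this pathway, Tg, Slc5a5, Slc26a4, Duox1, Duox2, Duoxa2, Iyd and Tshr, were followed over 49 microarrays of rat thyroid. They are 8 of the 15154 gene symbols that could be matched to a probe. A probe was taken for a gene where the RefSeq accession given for it in the scanner file belongs to that gene. Slc5a5 and Tshr had 2 probes each and the others 1, and the probe with the highest mean signal stood for its gene.

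Each array held Cy3-labelled total RNA from the thyroid of 1 male Sprague Dawley rat. Exposed rats received an injection of the radioiodine isotope 131I, which the thyroid takes up like other iodide, and all controls were untreated. Rats called young were injected at 5 weeks of age. They received 50 kBq and were killed 3, 6 or 9 months later (4 arrays each), or 0.5 kBq (4 arrays), 5 kBq (3 arrays) or 500 kBq (4 arrays) and were killed 9 months later. Rats called adult were injected with 50 kBq at 17 weeks of age and killed 3, 6 or 9 months later (4 arrays each). Control rats were killed at 4 months (4 arrays), 7 months (3 arrays), 10 months (4 arrays) and 13 months of age (3 arrays). Each exposed group was compared with the controls of its own age at killing. All values are whole-tissue values, so fewer follicular cells and less RNA per follicular cell cannot be told apart.

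The follicular cells of the thyroid, the thyrocytes, take iodide from the blood through the sodium iodide symporter, move it to the follicle lumen and bind it to tyrosines of thyroglobulin. The binding needs hydrogen peroxide, which the dual oxidases produce at the apical membrane. After thyroglobulin is digested, iodide is recovered from the iodotyrosines that did not become hormone, and thyrotropin from the pituitary drives the whole process through its receptor. Slc5a5 encodes the symporter and Slc26a4 encodes pendrin, an anion exchanger of the apical membrane. Tg encodes thyroglobulin, Duox1 and Duox2 encode the oxidases, and Duoxa2 encodes the maturation factor that brings DUOX2 to the cell surface. Iyd encodes iodotyrosine deiodinase and Tshr encodes the thyrotropin receptor.

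In the rat assembly GRCr8, Duox2 (chr3:129680543-129698886) and Duoxa2 (chr3:129698938-129702656) lie side by side with 51 bases between them, and Duox1 (chr3:129714125-129749186) follows 11468 bases beyond Duoxa2. Tg lies at chr7:100307349-100492246, Slc5a5 at chr16:18580705-18590692, Iyd at chr1:42410099-42425414, Slc26a4 at chr6:53835102-53873968 and Tshr at chr6:116072321-116206009. A promoter window, from 250 bases before to 50 bases after an annotated start site, was found in the RefSeq table of GRCr8 for 5 of the 8 genes. The windows of Duox2 and Iyd are shown because these genes gave the largest fold changes with age among the genes measured above background, and because the Duox2 window also holds the start of Duoxa2. The Duox2 window (chr3:129698704-129699003, read on the minus strand) has the annotated start of Duoxa2 at base 66 and the start site of Duox2 used by the table at base 251. The start sites used for both windows lie inside the gene spans given above. Capitals mark a TATAAA on the other strand at bases 88 to 93. In the Iyd window (chr1:42409888-42410187, plus strand), capitals mark CAAGTG, the core of the motif of the thyroid factor NKX2-1, at bases 29 to 34, and TATAAA at bases 209 to 214.
Duox2: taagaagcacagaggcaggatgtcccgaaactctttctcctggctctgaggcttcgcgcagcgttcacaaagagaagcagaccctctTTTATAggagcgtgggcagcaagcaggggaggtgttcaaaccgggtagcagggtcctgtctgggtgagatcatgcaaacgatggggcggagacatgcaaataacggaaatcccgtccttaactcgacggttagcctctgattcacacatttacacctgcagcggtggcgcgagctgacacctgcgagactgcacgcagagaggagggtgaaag
Iyd: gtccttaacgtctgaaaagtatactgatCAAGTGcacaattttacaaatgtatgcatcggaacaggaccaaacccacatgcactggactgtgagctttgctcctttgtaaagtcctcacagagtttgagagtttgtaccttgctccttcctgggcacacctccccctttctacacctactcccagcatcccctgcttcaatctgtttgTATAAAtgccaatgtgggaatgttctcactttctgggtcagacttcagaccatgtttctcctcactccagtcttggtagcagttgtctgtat
Of 33469 RefSeq windows of this length, 14.2% held TATAAA and 14.1% held CAAGTG on either strand, so that both motifs are common. The motif of the cyclic AMP response element, TGACGTCA, was in 1.83% of them and in none of the 5 windows of the pathway genes.

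An array held 62976 spots for 30367 probes and no spot was saturated. Values are log2 of the processed signal minus the 75th percentile of the array, called the level below, so that a level of 0 equals that percentile and a difference of 1 is a doubling. A probe was called changed at an adjusted p under 0.01 together with a fold change above 1.5. On 46 arrays the 75th percentile lay between 1333 and 4172 signal units and the median correlation with the other arrays between 0.958 and 0.984. The other 3 arrays stood apart. Replicate 2 of the young rats killed 3 months after 50 kBq had a 75th percentile of only 61.0 units and a median correlation of 0.757. Replicate 3 of the same group and replicate 2 of the 7-month controls had median correlations of 0.946 and 0.947. Every value that rests on these arrays is given with all 49 arrays and with the other 46, a setting chosen after the data had been seen.

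Thyrocyte markers, taken as a list, went with the tissue label on 46 arrays and against it on 2. A list of 8 thyrocyte markers that holds none of the 8 pathway genes (among them Pax8, Nkx2-1, Foxe1, Hhex, Dio1, Cdh16 and Slc26a7) had a mean level between 0.28 and 3.17 on the 46 arrays, with all 8 well above background on each of them. On replicate 3 of the young rats at 3 months the mean level was -5.11 with 4 of 8 markers above background, and on replicate 2 of the 7-month controls it was -4.75 with 7 of 8. Skeletal muscle genes (10 with a probe) had mean levels of 7.97 and 7.60 on these 2 arrays, above the highest of the 46 arrays, 7.02. On the dim array, replicate 2 at 3 months, the muscle list reached 8.18 and the thyrocyte list 2.55. The source of the RNA on these 2 arrays was not tested, and the arrays are referred to by their labels.

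Tg, the scaffold of the hormone, had the narrowest spread of the genes measured above background on all of the 46 arrays. Its level ran from 6.41 in a rat given 500 kBq to 7.91 in a 13-month control, with a median of 7.15. The 75th percentile was 4172 units on the first of these arrays and 1412 on the second. The part of this scaling in the spread of Tg was not tested. The libraries labelled as young 50 kBq at 3 months replicate 3 and 7-month control replicate 2 had Tg levels of 0.14 and -0.69. The dim array had 10.94, although its processed signal of Tg, 120089 units, was below the 408829 units of replicate 1 of its group. Group means on the 46 arrays ran from 6.81 ± 0.39 (SD, n = 3) at 5 kBq to 7.74 ± 0.19 (SD, n = 3) in the 13-month controls. The second highest mean was 7.31 ± 0.14 (SD, n = 4) in the 10-month controls, and the remaining 10 groups lay between 7.01 and 7.26, closer to each other than the spread within most of them.

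For iodide entry, Slc5a5 ran from -0.62 to 2.86 on the 46 arrays with a median of 1.07. On the 2 muscle-rich libraries it was at -4.88 and -7.01, the latter not well above background. The highest group mean on the 46 arrays was 2.14 ± 0.45 (SD, n = 2) in the 7-month controls and the lowest 0.09 ± 0.72 (SD, n = 4) at 0.5 kBq. Neighbouring groups in this order did not differ beyond their spread. The second Slc5a5 probe followed the first with r = 0.89 over deviations from the group means on the 46 arrays.

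Slc26a4, the apical anion exchanger, was well above background on 4 of 49 arrays only. These were replicates 2 and 3 at 5 kBq, at -6.45 and -7.53, replicate 1 of the adult rats at 3 months, at -6.34, and replicate 3 of the adult rats at 9 months, at -7.86. All other arrays gave no more than a bound, so no fold change is given for this gene.

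The hydrogen peroxide system was measured on nearly all arrays, with Duox1 and Duox2 above background on 49 of 49 and Duoxa2 on 46. Duox2 ran from -0.62 to 2.38 on the 46 arrays, Duox1 from -0.89 to 0.88 and Duoxa2 from -3.97 to -1.05. On the libraries labelled young 50 kBq at 3 months replicate 3 and 7-month control replicate 2, Duox2 was at -0.84 and -4.98. Duox1 was at -3.70 and -4.56 there, and Duoxa2 at -6.54 and -9.14 and not well above background. Duox2 and Duoxa2 had their highest group means in the 13-month controls, at 2.34 ± 0.05 and -1.35 ± 0.22 (SD, n = 3), and their lowest at 0.5 kBq, at 0.49 ± 0.91 and -3.11 ± 0.80 (SD, n = 4). Duox1 was highest at 5 kBq, 0.52 ± 0.11 (SD, n = 3), and lowest in the 2 retained arrays of young rats 3 months after 50 kBq, -0.36 ± 0.67. In the order of the means, neighbouring groups overlapped for all 3 genes, apart from Duox2 in the 13-month controls, which lay above the 2 retained 7-month controls.

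Iyd, which recycles iodide, ran from -3.18 to 0.78 on the 46 arrays and was at -8.04 and -9.08, not well above background, on the 2 muscle-rich libraries. Its group means ran from -1.61 ± 1.43 (SD, n = 4) at 0.5 kBq to 0.28 ± 0.72 (SD, n = 3) in the 13-month controls. Tshr, the receptor at the top of the pathway, ran from -0.87 to 2.54, with both of these values in the 4-month controls, and was at -3.33 and -2.57 on the muscle-rich libraries. Its group means ran from 0.32 ± 0.45 (SD, n = 2) in the retained young rats at 3 months to 2.19 ± 0.23 (SD, n = 3) in the 13-month controls. For Iyd and Tshr every group overlapped with the next in order. The 2 Tshr probes moved together with r = 0.95. A single test over the 13 groups called none of the 8 genes with all 49 arrays, where it called 0.297% of all probes, and none with 46 arrays, where it called 7.72%. The lowest adjusted p of limma's F test were 0.0338 for Duox2 and 0.0429 for Duoxa2, both with 46 arrays.

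**Figure D1:**
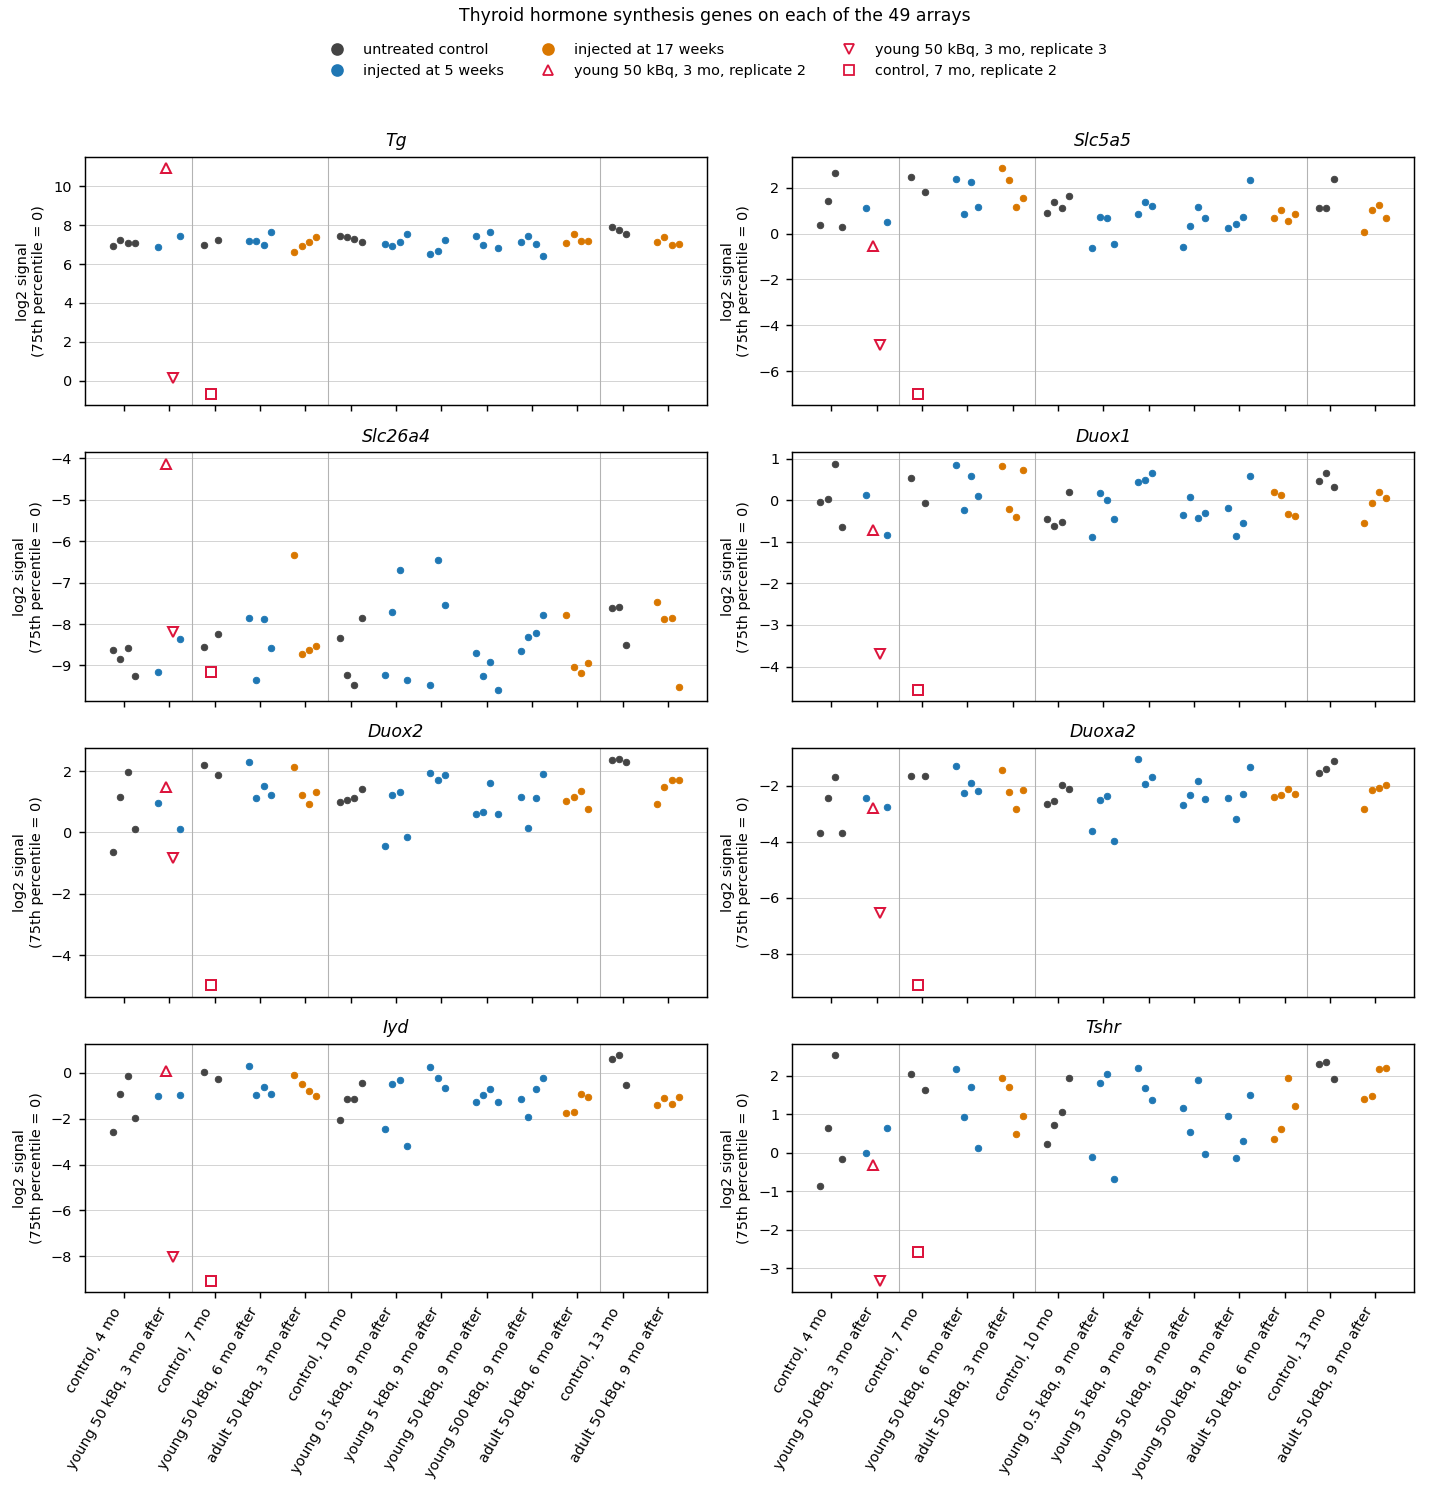
Level of each of the 8 genes (log2 signal minus the 75th percentile of the array, vertical axes) on every array, by group, with 1 point an array; the 3 arrays that stand apart are marked. On 2 of these, Tg, Slc5a5, Duox1, Duox2, Duoxa2, Iyd and Tshr lie below nearly all other arrays, and the 13-month controls lie near the top for Tg, Duox2, Duoxa2 and Iyd.

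The activity comparison asked how the injected amount of 131I bears on the thyroid 9 months after injection at 5 weeks of age. None of the 8 genes was called at 0.5, 5, 50 or 500 kBq against the 10-month controls, where limma called 0%, 0.0119%, 0.0119% and 0% of all probes. The 4 comparisons share their control arrays. Counts and medians over the 8 genes include Slc26a4, whose values are mostly below background. With the 3 other arrays left out of the fit the count stayed at 0 for each activity, although the 95% intervals of a difference narrowed from a median half-width of 1.78 to 0.83.

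At 0.5 kBq, 6 of 8 genes were lower than in the controls, with a median log2 difference of -0.32 against 0.00 over all probes. Slc5a5 was at -0.62, 0.74, 0.69 and -0.44 at 0.5 kBq and at 0.88, 1.37, 1.12 and 1.65 in the 10-month controls. Every exposed rat lay below every control, as was the case for 0.483% of all probes in this direction (1.05% in either direction, and 1.06% with the probes of the 46-array fit). The difference was -1.16 (95% interval -3.40 to 1.08 with all arrays and -2.13 to -0.18 with 46) and an exact permutation test gave p = 0.0286, the smallest value that 4 arrays against 4 allow. The second Slc5a5 probe gave -0.70 and overlapped between the groups, and both differences had an adjusted p of 1.00.

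In the same group replicates 1 and 4 had low levels of several genes. Iyd was at -2.46 and -3.18 there against -0.48 and -0.33 in replicates 2 and 3. Duoxa2 was at -3.61 and -3.97 against -2.51 and -2.36, and Tshr at -0.10 and -0.68 against 1.80 and 2.04. The gap within the group was thus larger than the group's difference from the controls, which was -0.42 for Iyd, -0.80 for Duoxa2 and -0.22 for Tshr. The mean level of the thyrocyte list in this group ran from 0.53 to 2.30, and its part in the gap was not tested.

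At 5 kBq, 6 of 8 genes were higher than in the controls, with a median difference of 0.76 against -0.02 over all probes. Duox2 was at 1.93, 1.69 and 1.86 in the exposed rats and at 1.00, 1.07, 1.13 and 1.42 in the controls. Duox1 was at 0.45, 0.47 and 0.64 against -0.46, -0.63, -0.53 and 0.19, and Duoxa2 at -1.05, -1.95 and -1.69 against -2.63, -2.55, -1.95 and -2.10. All 3 genes of the hydrogen peroxide system lay above every control, which 8.55% of all probes did. The differences were 0.67 for Duox2, 0.88 for Duox1 and 0.75 for Duoxa2, with adjusted p of 1.00 in limma with all arrays and of 0.725 to 0.732 with 46. Of these, Duox2 had an exact permutation p of 0.0286. The thyrocyte list ran from 2.15 to 2.60 at 5 kBq and from 1.36 to 2.27 in the 10-month controls, and its part in these differences was not tested. Tg differed the other way, at 6.53, 6.65 and 7.26 against 7.12 to 7.45 in the controls, a difference of -0.49 in which the groups overlapped. The 75th percentile, to which every level is scaled, was 3629 to 3653 units at 5 kBq and 1842 to 2802 in the controls. Its part in the Tg difference was not tested.

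At 50 kBq, 6 of 8 genes were lower, with a median difference of -0.09 and a range from -0.86 (Slc5a5) to 0.14 (Iyd). At 500 kBq, 4 of 8 were lower, with a median of -0.04. All 8 genes overlapped between exposed and control rats in both comparisons. With log10 activity as a regressor in the 15 exposed arrays, a slope was called for none of 23116 probes, of which 599 had an unadjusted p under 0.05. For the 7 genes that were tested, Slc26a4 being too dim, the slopes lay between -0.10 for Tshr and 0.19 for Slc5a5 and Duoxa2 for a step of 1 in log10 activity, all with an adjusted p of 1.00.

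**Figure D2:**
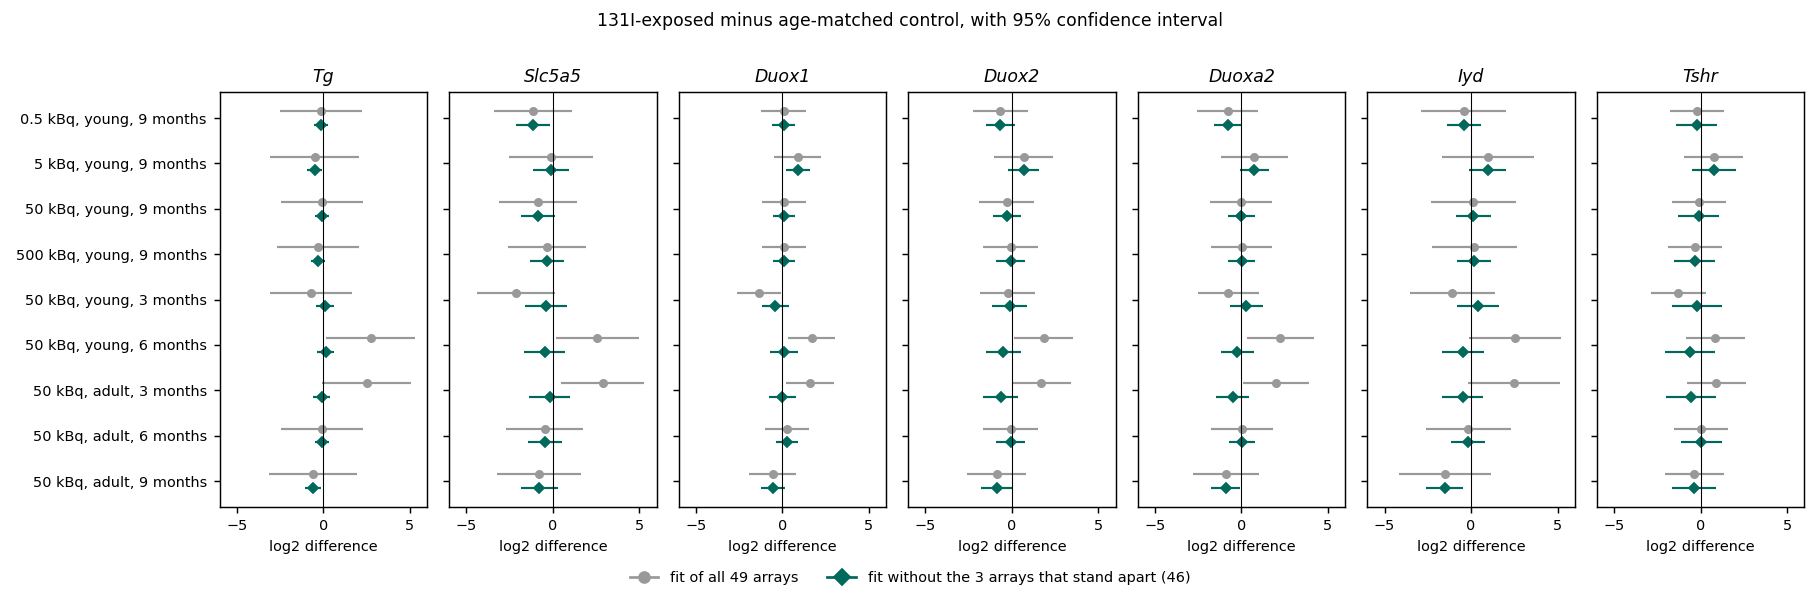
Log2 difference between exposed rats and controls of the same age for the genes other than Slc26a4 (panels) in each comparison (vertical axis). The 95% intervals are from limma, for all 49 arrays and for 46 arrays. The intervals with all arrays are wide and most include 0, and at 6 months in young and 3 months in adult rats the positive differences with all arrays shift to around 0 without the 3 arrays.

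The series also asked how the response to 50 kBq changes with time and with age at injection. None of the 8 genes was called against controls of the same age in young rats after 3 months (0.0119% of all probes called) or 6 months (0%), or in adult rats after 3 months (0%), 6 months (0%) or 9 months (0.558%). The first 3 of these comparisons rest on the libraries that stood apart, and there the 49-array values describe those libraries. In young rats at 3 months, 7 of 8 genes were lower with a median of -0.92, and without the 3 arrays 4 of 8 were lower with a median of -0.04. In young rats at 6 months all 8 were higher with a median of 2.04, and without the 3 arrays 6 of 8 were lower with a median of -0.35 (0.0239% of all probes called). In adult rats at 3 months all 8 were higher with a median of 1.85, and without the 3 arrays 6 of 8 were lower with a median of -0.33 (0.0358% called). The young 6-month and adult 3-month rats share the 7-month controls.

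Slc5a5 may serve as an example. In the adult rats 3 months after injection it was at 2.86, 2.32, 1.14 and 1.53, and in the 7-month controls at 2.46, -7.01 and 1.82. With all arrays the difference was 2.87 and with 46 it was -0.18 (95% interval -1.37 to 1.02). The remaining 7-month controls lay within the range of the exposed rats.

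Adult rats killed 6 months after injection differed little from the 10-month controls. The 8 differences ran from -0.47 (Slc5a5) to 0.25 (Duox1) with a median of -0.04, and all groups overlapped.

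Adult rats killed 9 months after injection had lower levels of all 8 genes than the 13-month controls, with a median difference of -0.69 against -0.14 over all probes. Iyd was at -1.41, -1.10, -1.34 and -1.07 in the exposed rats and at 0.61, 0.78 and -0.54 in the controls. Tg was at 7.15, 7.39, 6.97 and 7.05 against 7.91, 7.77 and 7.54. Duox2 ran from 0.91 to 1.71 against 2.35, 2.38 and 2.29, and Duoxa2 at -2.82, -2.13, -2.08 and -1.98 against -1.54, -1.40 and -1.11.

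In these 4 genes and in Duox1 every exposed rat lay below every control, as did 16.4% of all probes. The differences were -1.51 for Iyd, -0.90 for Duoxa2, -0.89 for Duox2, -0.60 for Tg and -0.56 for Duox1. Iyd, Duoxa2, Duox2 and Tg each had an exact permutation p of 0.0286, the smallest that 4 arrays against 3 allow. In limma the adjusted p was 0.55 for Iyd and 0.84 for Tg with all arrays, and 0.0355 and 0.0454 with 46, where 8.99% of all probes were called, so that neither passed 0.01. With 46 arrays limma called Tg with scan day as a block (-0.80, adjusted p 0.00576) and with array weights (-0.68, adjusted p 0.000444). Array weights also called Duox2 with 46 arrays (-0.96, adjusted p 0.00549). They called Iyd with all arrays (-1.82, adjusted p 0.0024) and with 46 (-1.82, adjusted p 2.96e-05). Normexp with 46 arrays called Slc26a4, which is mostly below background. No pathway gene was called here with 46 arrays under quantile or median scaling, slide or replicate block. The share of all probes called in these fits is not given. Within the single scan day that held both groups (2 arrays against 2) the differences were -1.41 for Iyd, -0.67 for Tg and -1.02 for Duox2. Over all 63 permutation tests of 7 genes in 9 exposed groups, 6 had a p under 0.05 with no adjustment for the number of tests, which are these 4 together with Slc5a5 at 0.5 kBq and Duox2 at 5 kBq.

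These 13-month controls differed from other arrays in more than the pathway genes. Their skeletal muscle list had mean levels between 2.47 and 3.99 against a median of 6.38 over the 46 arrays, and their thyrocyte list between 2.75 and 3.17. In the adult rats at 9 months the muscle list was at -2.76 on replicate 3 and at 6.31 or more on the others, and the thyrocyte list ran from 1.75 to 2.46. The 75th percentile was 1333 to 1441 units in the 13-month controls and 2426 to 3580 in the adult rats at 9 months. The part of these shifts in the differences of the pathway genes was not tested.

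**Figure D3:**
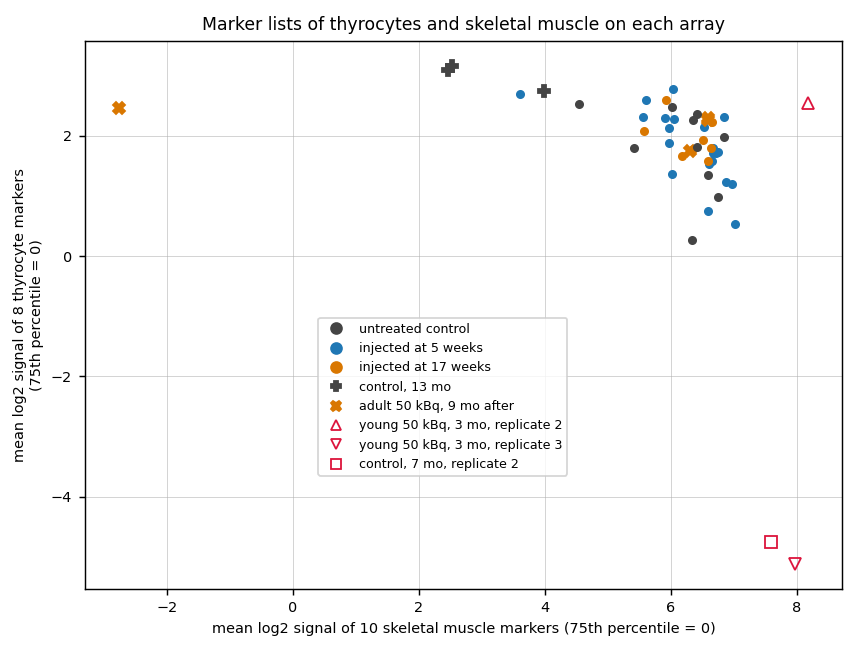
Mean level of the thyrocyte and skeletal muscle marker lists (log2 signal minus the 75th percentile of the array) on each array, by group. The 2 muscle-rich libraries have thyrocyte values of -5.11 and -4.75, and the 13-month controls combine thyrocyte values of 2.75 to 3.17 with muscle values of 2.47 to 3.99.

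Differences between exposure effects were tested as interactions, of 6 or 9 months minus 3 months, 9 minus 6 months and adult minus young, together with adult against young at the same age at killing. None of the 8 genes was called in these 11 contrasts, with 49 or with 46 arrays. With all arrays 0% of all probes were called in each, apart from 0.0119% in adult against young rats killed at 10 months. With 46 arrays 0.00795% were called in young 6 minus 3 months, young 9 minus 6 months, adult 6 minus 3 months and adult minus young at 3 and at 6 months, 0.163% in adult 9 minus 3 months, 1.13% in adult 9 minus 6 months and 2.25% in adult minus young at 9 months. In the last of these Iyd had the largest difference of the 8 genes, -1.66 ± 0.72 (SE), with an adjusted p of 0.13 from limma. At 10 months of age, rats injected as adults 6 months before and rats injected young 9 months before differed by -0.31 to 0.39 in the 8 genes, with all groups overlapping.

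The controls also allow untreated rats of different ages to be compared. At 13 months all 8 genes were higher than at 4 months, with a median log2 difference of 1.23 against 0.19 over all probes. Duox2 was at 2.35, 2.38 and 2.29 at 13 months and at -0.62, 1.15, 1.97 and 0.12 at 4 months. Duoxa2 was at -1.54, -1.40 and -1.11 against -3.69, -2.45, -1.69 and -3.69. Iyd was at 0.61, 0.78 and -0.54 against -2.57, -0.94, -0.13 and -1.96, and Tshr at 2.29, 2.35 and 1.92 against -0.87, 0.64, 2.54 and -0.16. For Duox2, Duoxa2 and Tshr the 13-month rats lay close together, while Iyd spread over 1.32 among them. The 4-month controls spread more widely for all 4 genes, with replicate 3 close to the 13-month rats or above them.

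Tg, Duox2, Duoxa2 and Slc26a4 did not overlap between 13 and 4 months, as did 21.5% of all probes in this direction. Slc26a4 was below background on all of these arrays. With all 49 arrays no gene was called, while 5.15% of all probes were. With 46 arrays 22.0% of all probes were called, and among the 8 genes Duox2 and Duoxa2 passed. Duox2 rose by 1.68 ± 0.44 (SE) with an adjusted p of 0.00326 in limma, and Duoxa2 by 1.53 ± 0.41 (SE) with an adjusted p of 0.00406. These are the neighbours whose starts lie in the window printed above. Iyd (1.68, adjusted p 0.0116), Tg (0.66, adjusted p 0.0172) and Tshr (1.65, adjusted p 0.0362) did not pass 0.01, and Duox1 and Slc5a5 differed by 0.42 and 0.34 with overlap. A share of 2 in 8 is close to that of all probes.

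With all 49 arrays and array weights, limma called Duox2 (1.95, adjusted p 0.000364) and Duoxa2 (1.61, adjusted p 0.00457). It also called Iyd (2.25, adjusted p 0.00269) and Tshr (2.06, adjusted p 0.00276), and the share of all probes called with these weights is not given. The 3 arrays that stand apart had weights of 0.023, 0.176 and 0.127 and thus counted little in this fit. With 46 arrays Duox2 and Duoxa2 lost their call without replicate 1 or 4 at 4 months or replicate 1 or 2 at 13 months. The adjusted p for Duox2 in these fits, each without 1 of these arrays, were 0.0274, 0.0163, 0.0144 and 0.0151. Without replicate 3 at 13 months Duoxa2 alone lost its call (adjusted p 0.0185). Within the scan days that held both ages the differences were 2.06 and 1.33 for Duox2 and 1.75 and 1.29 for Duoxa2. The first day held 2 arrays at 13 months against 2 at 4 months, and the second held 1 against 2. The 13-month arrays are the ones with low muscle and high thyrocyte levels described above, and the thyrocyte list at 4 months ran from 0.28 to 2.48. Other marker lists differed in this comparison too, not always on every array. Squamous epithelium markers were at 1.87, 2.19 and 0.42 on replicates 1, 3 and 4 at 4 months and between -5.54 and -5.22 at 13 months. Replicate 2 at 4 months was as low, at -5.55. Fibroblast markers ran from 1.64 to 2.10 at 4 months and from -0.22 to 1.03 at 13 months, endothelial markers from -1.11 to -0.49 and from -0.40 to -0.05, and C-cell markers from -2.88 to -0.36 and from 0.71 to 2.98. The part of these lists in the differences was not tested. The comparison of adult rats at 9 months uses the same 3 control arrays, so it and the age comparison are not independent.

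At the other ages the differences from 4 months were not called. At 10 months 7 of 8 genes were higher with a median of 0.21 (0.0119% of all probes called). At 7 months 7 of 8 were lower with a median of -1.34 with all arrays (0.00396% called), and all 8 were higher with a median of 1.09 on the 46 arrays (0.0278% called), where 2 controls remained.

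**Figure D4:**
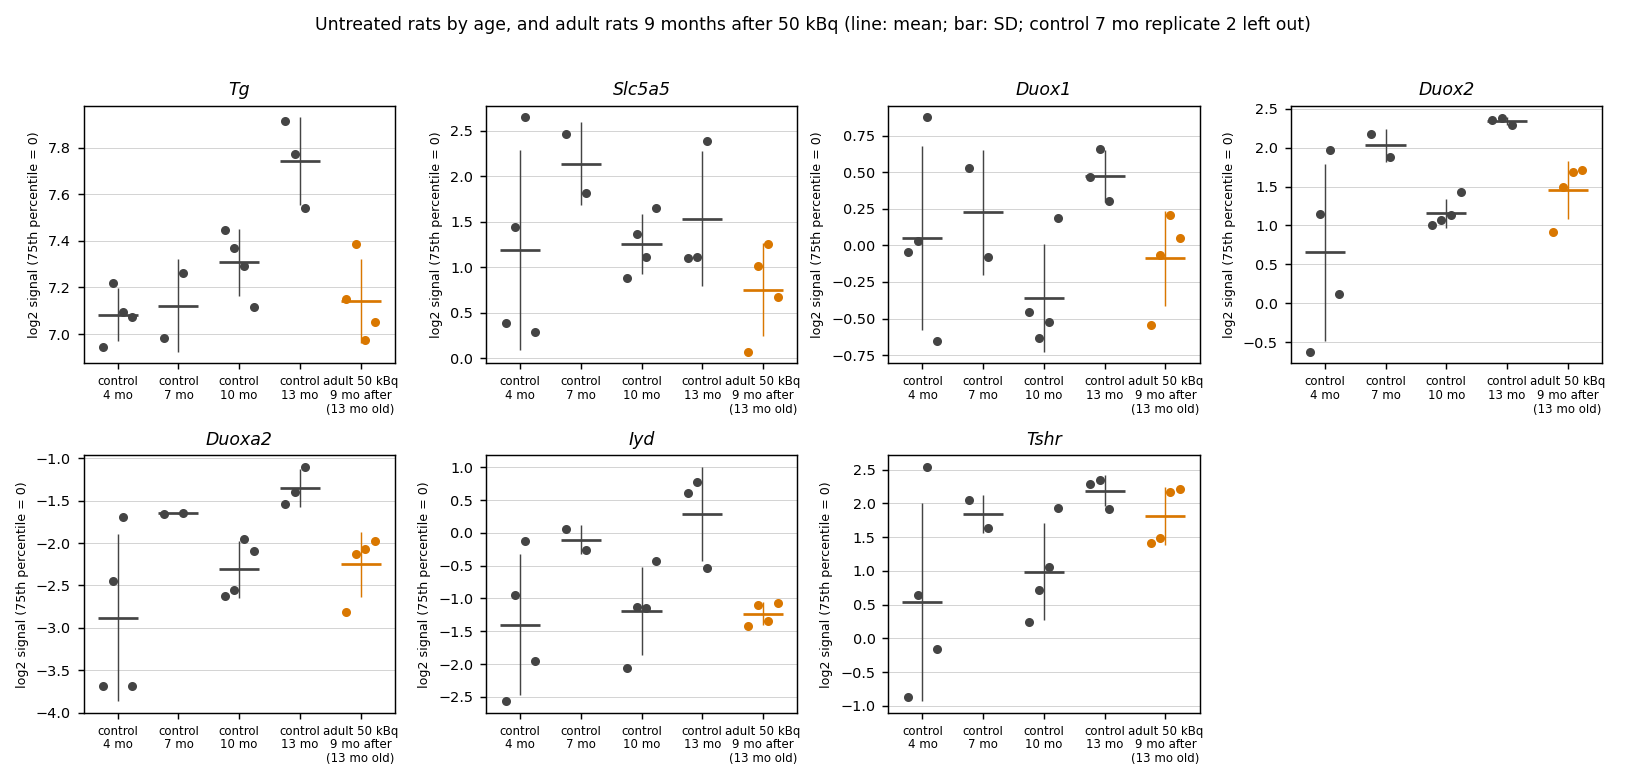
Level of the genes (log2 signal minus the 75th percentile of the array) in untreated rats by age in months, with 1 point an array. Duox2, Duoxa2 and Tg are higher at 13 months than in every 4-month rat. The library labelled 7-month control replicate 2 is left out.

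Rats of the same group differed from each other in a shared way. Over the 46 arrays, with group means removed, all 15 pairs among Slc5a5, Duox1, Duox2, Duoxa2, Iyd and Tshr were positively correlated. Pearson's r ran from 0.53 to 0.92 and the lowest Spearman's rho was 0.45. Each of the 15 had an adjusted p under 0.05 in a permutation test within groups over the 28 pairs. The closest pair was Duox2 and Duoxa2, with r = 0.92 and rho = 0.88 (permutation p 1e-05 for each, the smallest the resampling can give; adjusted p 4.67e-05 for each) and r = 0.93 without the 2 arrays farthest from the median of Duox2. Within the 3 scan days, r was 0.96, 0.98 and 0.90. Iyd and Tshr followed with r = 0.87 and rho = 0.83 (permutation p 1e-05 and adjusted p 4.67e-05 for each), r = 0.86 without the 2 farthest arrays, and 0.85, 0.90 and 0.67 within scan days. On 2 of the 3 arrays that stand apart, most of the 8 genes lie far below the other 46 arrays. No r between 2 of the 8 genes is therefore given over all 49.

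Tg stood outside this block. Its r with the 6 genes ran from -0.42 (Slc5a5) to -0.26 (Duox2) on the 46 arrays, with an adjusted permutation p under 0.05 for 4 of 6, and from -0.30 to -0.16 without the 2 farthest arrays. For Tg and Slc5a5 rho was -0.44, with permutation p of 0.0162 for r and 0.00656 for rho and adjusted p of 0.0252 and 0.0115. All 6 were negative on the first and the second scan day, from -0.67 to -0.01, and on the third, where 10 arrays in 7 groups leave 3 degrees of freedom, 2 of 6 were, with r from -0.28 to 0.96. Duox1 was also negative with the 5 other genes of the block on the third day, from -0.91 to -0.35, and positive on the others. The deviations of Tg had r = -0.74 with log2 of the 75th percentile of the array, by which every level was divided, while the 6 genes had 0.09 to 0.24. The part of this in the sign of the Tg correlations was not tested.

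Markers of thyrocytes moved with the block. The mean level of the thyrocyte list had r between 0.65 (Duox1) and 0.94 (Duox2) with the deviations of the 6 genes over the 46 arrays, and the muscle list between -0.36 and -0.20. All points share arrays and their scaling, and no p is attached to these values. Slc26a4 had r between -0.11 and 0.41 with the other 7 genes.

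**Figure D5:**
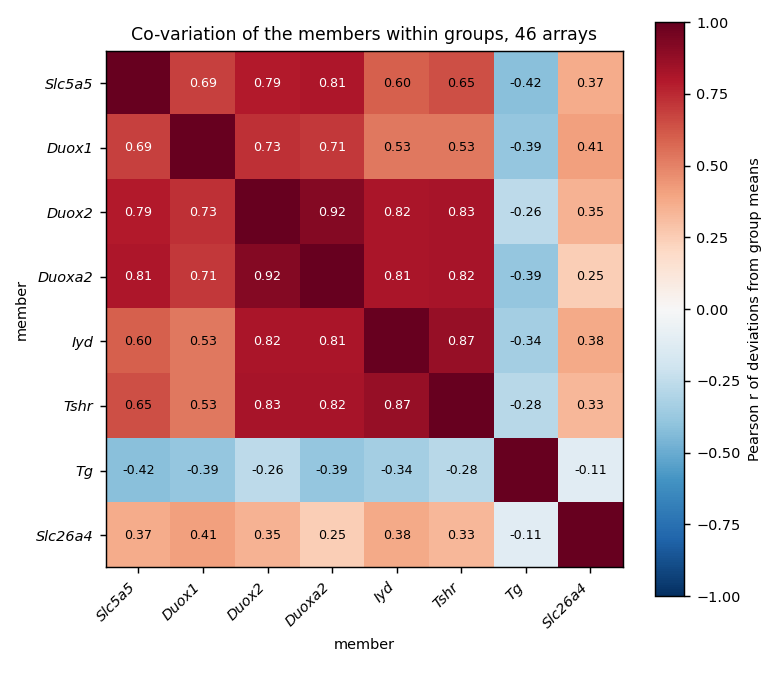
Pearson's r between each pair of the 8 genes over 46 arrays, from deviations from the group mean; colour gives r. The block of Slc5a5, Duox1, Duox2, Duoxa2, Iyd and Tshr has r from 0.53 to 0.92, and Tg has -0.42 to -0.26 with its members.

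The genes most like each of the 8 were searched among 6360 genes above background on all 49 arrays, by Pearson's r of the level. Over all 49 arrays these included Prss8 (0.88) and Gpx2 for Tg, and were Kcnk1 (0.95), Rsph9 and Sqle for Slc5a5. For Duox1 they were Duoxa1 (0.97), Sqle and Pdzk1ip1, for Duox2 Mt3 (0.95), Col8a1 and Folr1, and for Duoxa2 Egfl6 (0.96), Ppp1r1b and Tmem14a. For Iyd they were Nkx2-1 (0.97), Ppp1r1b and Epcam, for Tshr they included Hps4 (0.94) and Kcnmb4, and they were for the dim Slc26a4 Rab29 (0.79), Clec12a and Rfx5. These r include the libraries that stood apart, on 2 of which Iyd was at -8.04 and -9.08 against a median of -0.95 on the 46 arrays. The lists differed on the 46 arrays.

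On the 46 arrays Duoxa1, the maturation factor of DUOX1, remained first for Duox1 with r = 0.89, followed by Rhod and Sqle. Tg was now closest to the ribosomal protein gene Rpl35 (0.95), Ceacam9 and the ribosomal protein gene Rpl41. Genes close to Duox2 included Ppp1r1b (0.94) and Gsta4. Slc5a5 was closest to Dnajc25 (0.88), to Atp1b1 and to Phkg2. Duoxa2 was closest to Sdc2 (0.89), Hps4 and Ppp1r1b, and genes close to Iyd included Hps4 (0.89) and Nkx2-1. Tshr was closest to Nkx2-1 (0.91), a transcription factor of thyrocytes, then to Ppp1r1b and Hps4. Slc26a4 was closest to Rab29 (0.66), Napsa and Abhd11-as1. These are likenesses over arrays that share their scaling and carry no p.

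The remaining genes of the pathway were taken from a list of 39, 37 of them with a probe and 35 bright enough to test. It covers organification and apical handling of iodide (9 genes), uptake and breakdown of thyroglobulin (7), export and deiodination of the hormones (7), signalling below the thyrotropin receptor (11) and transcription factors of thyrocytes (5). None was called at any activity, with 49 or 46 arrays. At 0.5 kBq 28 of 35 were lower, with a median of -0.14, and at 5 kBq 20 of 35 were higher, with a median of 0.10.

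In adult rats 9 months after injection, 26 of 35 were lower than in the 13-month controls, with a median of -0.48. Creb1, a transcription factor activated by cyclic AMP signalling, fell by 1.21 on the log2 scale (adjusted p 0.00437 in limma with all arrays). With 46 arrays Gnaq, a G protein subunit below the receptor, fell by 1.30 (adjusted p 3.28e-05), the thyrocyte factor Foxe1 fell by 1.40 (adjusted p 0.00799) and Ctsb, a lysosomal protease that digests thyroglobulin, fell by 0.70 (adjusted p 0.00426). The hormone and amino acid transporter Slc16a10 rose by 1.53 (adjusted p 0.00622), which makes 1 gene of 35 higher and 4 lower, where 3.38% of all probes were called higher and 5.61% lower. In the interactions with 46 arrays, Gnaq and Creb1 were called in adult minus young at 9 months and in adult 9 minus 6 months, and Creb1 in adult 9 minus 3 months.

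Between controls of 13 and 4 months, 26 of 35 genes were higher at 13 months, with a median of 0.74. With all arrays 3 were called higher, Ctsb (1.05), Gnaq (1.61) and Creb1 (1.13), and Slc16a10 lower (-1.62), with adjusted p of 0.00505, 0.00618, 0.00126 and 0.00777, where 3.05% of all probes were called higher and 2.10% lower. With 46 arrays 11 of 35 were called higher and 1 lower, where 14.7% of all probes were called higher and 7.27% lower. Among the added genes were the thyrocyte factors Pax8 (2.14), Foxe1 (2.02) and Nkx2-1 (1.74), the anion transporters and channel Slc26a7 (2.10), Slc5a8 (1.69) and Ano1 (1.40), and the adenylyl cyclase Adcy6 (1.46), with adjusted p between 0.000161 and 0.00506. The 4 genes called with all arrays in this comparison are those that, with Foxe1, were called in the opposite direction in adult rats at 9 months with 46 arrays, and both comparisons use the 3 arrays of 13-month controls.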

How the data were processed

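Each of 49 single-dye Agilent rat expression arrays (Sureprint G3, 8x60K) carried thyroid RNA of a single rat, and groups follow the sample labels. The authors deposited 1 file per array from Agilent Feature Extraction, whose processed signal is an intensity with the local background removed and no scaling across arrays, together with marks in other units (0 or 1 for saturation, outliers and signals well above background). A deposited table of the authors' own fold changes was not used. The authors compared exposed and control rats in Nexus Expression with Benjamini-Hochberg adjustment and the cut-offs used here. Neither their normalization nor the kind of test is given in the sources used here.

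Control spots and outlier spots were left out, values were put on the log2 scale relative to the 75th percentile of their array, and repeated spots were averaged per probe. Of 30367 probes, 17998 matched a symbol of the RefSeq gene table of GRCr8 by accession. Probes well above background on at least 3 arrays were kept (25284 with 49 arrays, 25155 with 46). limma 3.58.1 in R 4.3.3 (packages jsonlite 2.0.0 and data.table, version 1.17.8) fitted 1 mean per group over all arrays, with Benjamini-Hochberg adjustment over all probes, and a call needed an adjusted p under 0.01 and a fold above 1.5. Single genes were compared with two-sided exact permutation tests. Correlations between genes used 100000 resamples within groups. The precision is limited by 3 or 4 arrays a group, each from 1 rat. Python 3.11.15 with matplotlib 3.10.9, numpy 2.4.6 and pandas 2.3.3 drew the figures.

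The genes, the pathway list and the marker lists were chosen with earlier results of these data known. Named were the 8 genes, for each the 3 genes with the highest r, and genes of the pathway list that were called in any comparison, apart from some genes that are not reported here. Alternatives were quantile and median scaling, normexp on the median signals of spots (offset 50), other filters, slide, scan day or replicate number as a block, array weights, averaged probes, an adjusted p under 0.05, smaller fits, and each array left out. The scripts were tested on simulated data.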

Additional observations from a re-analysis of the deposited data

Results flagged for a closer look

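In groups of 4 arrays, the highest or the lowest array was compared with its nearest neighbour, as a share of the range of the group. Of 80 combinations of 8 genes and 10 groups, 4 passed the critical value of Dixon's test, and chance flags about 1 in 20. Duoxa2 (share 0.913) and Iyd (share 0.865) were flagged in young rats 3 months after 50 kBq, where replicate 3 was at -6.54 and -8.04 and the other arrays between -2.79 and -2.44 and between -1.02 and 0.07. Replicate 3 is the library with thyrocyte markers at -5.11 and muscle genes at 7.97. Duox2 was flagged in young rats 9 months after 50 kBq (share 0.932), where replicate 3 was at 1.61 and the others between 0.60 and 0.66. Slc26a4 was flagged in adult rats 3 months after 50 kBq (share 0.920), where replicate 1 was at -6.34 and well above background, and the others, between -8.72 and -8.53, were not.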

How the results depend on the processing

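The counts of called genes are 0 with all 49 arrays in each family of comparisons, and stayed 0 there under quantile or median scaling, normexp, both other filters, averaged probes, an adjusted p under 0.05, and slide, scan day or replicate block. Array weights on 49 arrays gave 4 calls with control age (Duox2, Duoxa2, Iyd and Tshr), 1 in the 50 kBq comparisons by time and age (Iyd in adult rats at 9 months) and 4 in the test over 13 groups. These weights were low for the 3 arrays that stand apart. All settings that follow leave out the 3 arrays and were chosen after the data had been seen. For control age the count was 2, and 2 also with quantile or median scaling, no filter, the group filter, slide, replicate block or averaged probes, 3 with scan day, 4 with normexp (Slc26a4 among them, below background), 5 with an adjusted p under 0.05 and 5 with array weights. For time and age it was 1 with normexp (Slc26a4), 1 with scan day (Tg), 2 with an adjusted p under 0.05 and 3 with array weights. Among differences between exposure effects it was 1 with array weights (Iyd, adult minus young at 9 months, -1.95), and over the 13 groups 2 with an adjusted p under 0.05 and 6 with array weights. The cause of these shifts was not tested, and the share of all probes called is not given for these settings. In the plain fits of 49 and 46 arrays that share was 5.15% and 22.0% for controls of 13 against 4 months. It was 0.558% and 8.99% in adult rats at 9 months, and 0% and 2.25% in adult minus young at 9 months. Over the 13 groups it was 0.297% and 7.72%.

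Leaving out 1 array at a time gave 0 to 0 calls in every family with 49 arrays, and with 46 gave 0 to 4 for control age, 0 to 2 over the 13 groups and 0 to 0 elsewhere. The value of 4 came without 4-month control replicate 3. Permutation tests with p under 0.05 numbered 6 of 63, and 2 to 8 with 1 array left out. The value of 2 came without any array of adult rats at 9 months or 13-month controls, where p cannot reach 0.05, and 8 without young 50 kBq at 9 months replicate 3. Correlated pairs numbered 16 of 28 with 49 arrays, 16 to 18 with 1 array left out, 27 with quantile scaling and 22 with 46 arrays. Replicate numbers did not pair the arrays, since 10 of 32 pairs of same-numbered arrays had a correlation above 0.1 (median -0.05), and the replicate block changed no count. No difference was called with all 49 arrays, so a change of sign in a called difference could not occur. Of 168 differences not called, the sign changed in 51 with array weights, 23 with slide, 23 with scan day and 5 or fewer under each scaling, in 52 of 161 without the 3 arrays, and in 135 of 1792 values obtained with 1 array left out.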
